A study of Danio rerio with 24 samples.

Results

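The organic ion and vitamin transporters are 51 genes of the 30263 in the expression table of larval zebrafish intestine. They were taken by name, as every gene whose symbol begins, ignoring case, with slc19a (4 genes), slc46a (4), slc52a (2), slc23a (3), slc22a (18), slc47a (6) or slco (14). All 51 passed the filter on low values, a normalized read count that reached 10 in no fewer than 3 of the 9 libraries, which 24298 genes of the table passed. The intestines came from AB larvae labelled wild type that carried tg(cldn15la:GFP) at every age, were dissected at 5, 7 and 9 days post fertilization (dpf), and were sequenced as ribosome-depleted total RNA in 3 libraries per age. The cldn15la promoter drives the GFP reporter in the gut epithelium. Larvae were fed dry feed, rotifers and Artemia. Each library is a pool of 10 whole intestines, and as the labels name no separate clutches for the pools, each p-value measures only the spread between pools, part of which may be technical. ChIP libraries for H3K4me3 and H3K27me3 also belong to the study and were not used here.

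Solute carriers move nutrients, drugs and metabolites across the membranes of absorptive and excretory epithelia. In mammals the slc19, slc46, slc52 and slc23 families hold the carriers of folate, thiamine, riboflavin and ascorbate, vitamins that an animal takes up through the brush border of its intestine. The slc22 family holds carriers of organic cations, organic anions and carnitine, the slc47 family holds proton-coupled exporters of organic cations, and slco genes encode the organic anion transporting polypeptides, which carry bile salts, steroid conjugates, prostaglandins and drugs. Zebrafish, like other teleosts, cannot make ascorbate and need it from the diet. Most roles given below are known from mammals, and symbols are spelled as the deposited table has them.

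Total reads per library ran from 7014333 to 14327144. A library had reads from 28869 to 29464 genes, and 3 reads, the upper limit for a gene counted at 0, amount to 0.209 to 0.428 RPM (reads in every 1000000 of the library). The lowest single value among the 51 was 4.91 normalized reads, for slco1f3 in 9 dpf replicate 2, where 3 reads came to 2.94. One library stood apart from the rest by its odorant receptor genes, a list added after the data were seen. They came to 289 RPM in 5 dpf replicate 2 and to 71.0 to 151 RPM in the other 8 libraries. Without 5 dpf replicate 2, 10 transporters and 11.5% of all genes tested were called at 9 against 5 dpf. Summed over the 51 genes, the transporters took 0.114% to 0.148% of a library. Of the markers of gut epithelium, cldn15la averaged 14002, 14540 and 17166 normalized reads at 5, 7 and 9 dpf. Because whole intestines were pooled, fewer cells of a type and less RNA per cell cannot be told apart in any value below.

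Between 5 and 9 dpf, 8 transporters rose and 4 fell, with adjusted p under 0.05. The genes that rose were the ascorbate carriers slc23a1 and slc23a2, the folate carrier SLC19A1, the thiamine carrier slc19a3a, slc22a4 and slc22a21 of the carnitine and ergothioneine carriers, the orphan carrier slc22a18 and 1 lysosomal carrier gene named SLC46A3. Those that fell were the carnitine carrier slc22a16, the cation exporter slc47a2, and slco1f1 and slco5a2 of the organic anion transporting polypeptides. The test was limma on log2(value + 1) fitted once over the 9 libraries, and p-values were adjusted by Benjamini-Hochberg across every gene tested. These 12 genes are 23.5% of the 51, against 16.8% of all genes tested. By direction, 12.6% of all genes were called higher and 4.28% lower. The median log2 change, 9 over 5 dpf, was -0.04 over the transporters and -0.04 over all genes, with 25 transporters above 0 and 26 below it. The 2 medians were equal at this precision, and 37 of the 51 genes changed by less than 1.5-fold either way. Of the 12 called genes, 2 changed by at least 2-fold, slc23a1 upwards and slco1f1 downwards. slco1f1 had 9 to 16 reads per library at 9 dpf, so its fold change rests on few reads. The 3 libraries of 9 dpf lay entirely above the 3 of 5 dpf for 12 transporters, a pattern that 20.5% of all genes tested showed, and entirely below them for 11, which 15.7% showed (36.3% in either direction). Those 23 genes include all 12 that were called. This separation is of normalized reads. In RPM, SLC19A1, slc22a21, slc19a3a and SLC46A3 were higher in 5 dpf replicate 2 than in 9 dpf replicate 2, so their ages overlapped. For SLC19A1 these were 315 of 7014333 reads and 580 of 14327144 reads. The other called genes stayed apart in RPM. Under quantile or cyclic loess scaling the split was 8 higher and 8 lower, because slc47a1, slco2b1, slco2a1 and slco1d1 were then also called lower. All genes tested shifted in the same way: 74.6% of their calls were higher in the fit described here, against 53.2% with quantile and 55.1% with cyclic loess scaling, and the share called was 21.1% and 21.5% under these scalings. Between 6 and 14 were called when 1 library at a time was left out, against 7.49% to 19.4% of all genes tested. Without 9 dpf replicate 2, 6 transporters and 7.49% of all genes passed. Without 9 dpf replicate 3, 7 transporters and 9.49% of all genes passed.

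**Figure D1:**
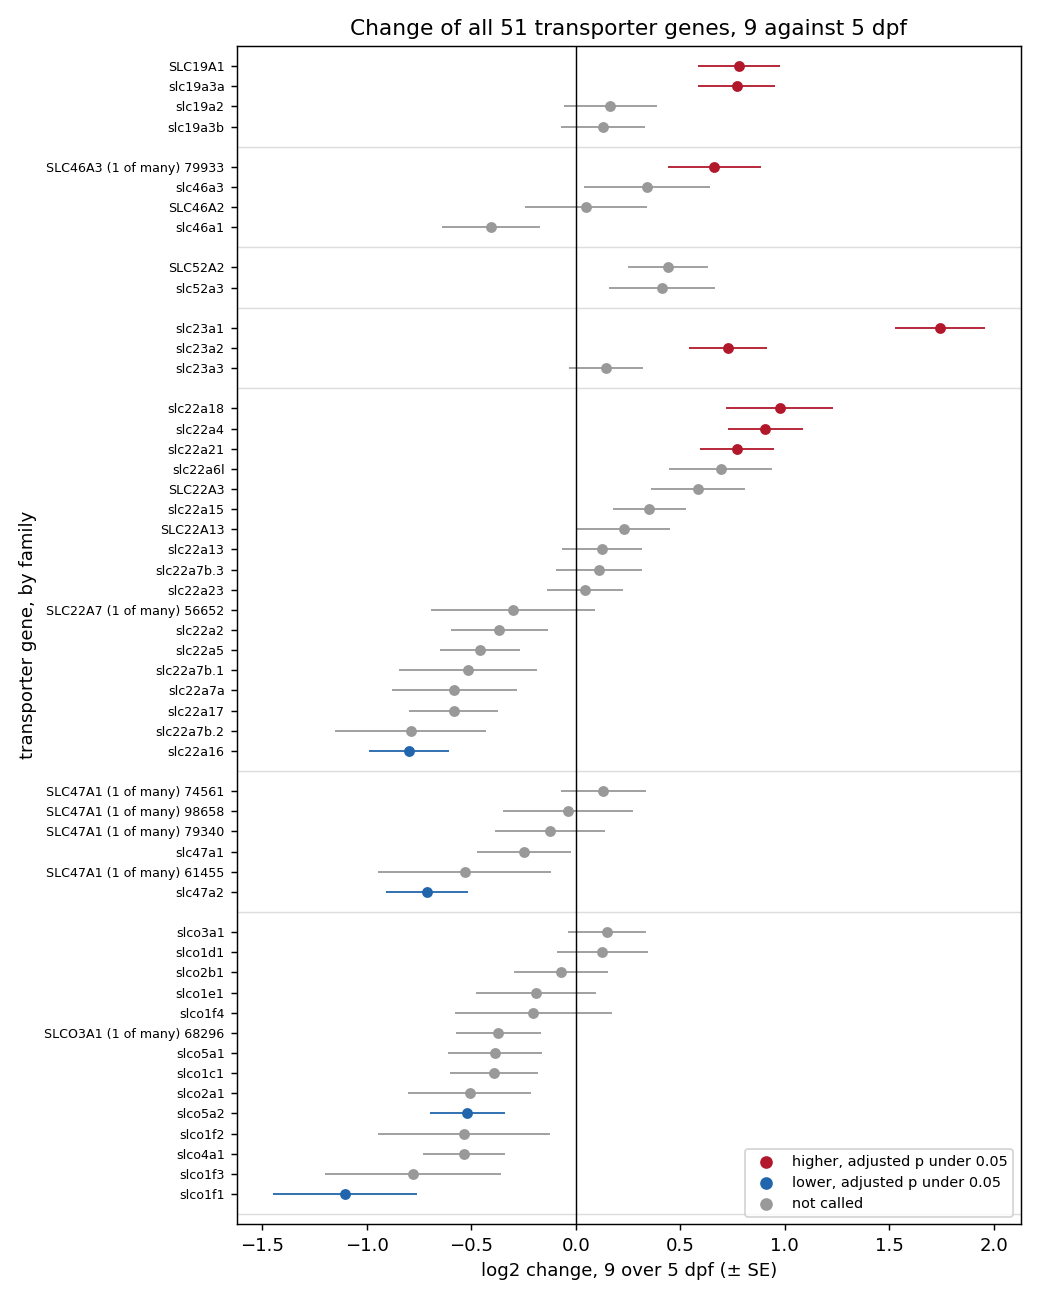
Log2 change, 9 over 5 dpf, of all 51 transporter genes, grouped by family with 1 gene per line. Points are limma estimates and bars are standard errors; red marks the 8 genes called higher, blue the 4 called lower and grey the rest, and the number after a "1 of many" name is the end of its identifier. The red points lie in the slc19a, slc46a, slc23a and slc22a families, and the blue points in slc22a, slc47a and slco.

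Ascorbate carriers gave the largest rise. In mammals slc23a1 encodes the sodium-dependent ascorbate carrier of the intestinal and renal brush border, slc23a2 its relative in most other cells, and slc23a3 a family member not known to carry ascorbate. slc23a1 (ENSDARG00000015033) had 294, 266 and 311 normalized reads in the 3 libraries of 5 dpf, 599.7, 404 and 716 in those of 7 dpf, and 872, 1001 and 1051 in those of 9 dpf. No library of one age overlapped another age, and the order was 5, 7, 9 dpf throughout. Its mean was 975 ± 92.4 at 9 dpf and 290.3 ± 22.8 at 5 dpf (SD, n = 3 each). That is a 3.35-fold rise with a log2 change of 1.74 (SE 0.22, limma adjusted p = 1.1e-05), and the call held under all 17 alternative settings.

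slc23a2 (ENSDARG00000017365) had 208, 177 and 261 normalized reads at 5 dpf, 224, 227 and 238 at 7 dpf, and 322, 409 and 334 at 9 dpf. All libraries of 9 dpf were above all of 7 and 5 dpf, whose values overlapped. It averaged 355 ± 47.4 at 9 dpf and 215 ± 42.2 at 5 dpf (SD, n = 3 each), 1.66-fold higher (log2 0.73, SE 0.19, limma adjusted p = 0.00930). The adjusted p was 0.0677 without 9 dpf replicate 2. Quantile and cyclic loess scaling gave log2 changes of 0.45 and 0.47, which passed. The third member, slc23a3, averaged 150.4 ± 11.4 normalized reads at 9 dpf and 136 ± 10.3 at 5 dpf (SD, n = 3 each), with overlapping libraries and an adjusted p of 0.591. Within each library, slc23a1 had 2.00 to 2.32 times the reads of slc23a3 at 5 dpf, 2.84 to 3.49 times at 7 dpf, and 6.18 to 7.00 times at 9 dpf. The level of such a ratio depends on transcript length.

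Of the folate carriers, SLC19A1 rose and slc46a1 did not pass. SLC19A1 encodes the reduced folate carrier in mammals, and slc46a1 the proton-coupled folate transporter, the main route of folate absorption in the mammalian small intestine. SLC19A1 (ENSDARG00000033993) had 335, 294 and 332 normalized reads at 5 dpf, 316, 414 and 449 at 7 dpf, and 469, 569 and 623 at 9 dpf. The libraries of 9 dpf lay above all others, while those of 7 and 5 dpf overlapped. It rose to a mean of 554 ± 78.0 at 9 dpf, against 320.5 ± 23.1 at 5 dpf (SD, n = 3 each), 1.72-fold (log2 0.78, SE 0.20, limma adjusted p = 0.00883). Without 9 dpf replicate 3 the adjusted p was 0.0640. With quantile scaling its log2 change was 0.42 (limma adjusted p = 0.0494) and with cyclic loess scaling 0.43 (0.0440).

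slc46a1 (ENSDARG00000026149) had 99.3, 64.4 and 88.6 normalized reads at 5 dpf, 92.3, 107 and 79.4 at 7 dpf, and 41.6, 73.6 and 78.2 at 9 dpf. The libraries of 9 and 5 dpf overlapped, and the log2 change of -0.41 (SE 0.23) did not pass (limma adjusted p = 0.234). The ratio of SLC19A1 to slc46a1 reads averaged 3.90 ± 0.608 at 5 dpf, 4.32 ± 1.18 at 7 dpf and 8.99 ± 1.98 at 9 dpf (SD, n = 3 each), and all 3 libraries of 9 dpf were above the 3 of 5 dpf. This pair and the other pairs whose ratios are given were chosen after the values were seen, so the ratios are a description with no test.

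Thiamine is carried in mammals by the products of SLC19A2 and SLC19A3, and zebrafish have a pair of slc19a3 genes. slc19a3a (ENSDARG00000006447) had 99.3, 105 and 124 normalized reads at 5 dpf, 170.0, 119 and 180.5 at 7 dpf, and 189, 173 and 199 at 9 dpf. The libraries of 9 dpf were all above those of 5 dpf, and those of 7 dpf overlapped both. The mean was 187 ± 13.4 at 9 dpf and 109 ± 12.6 at 5 dpf (SD, n = 3 each), 1.71-fold higher (log2 0.77, SE 0.18, limma adjusted p = 0.00619), a call that held under all 17 alternatives. slc19a3b, the other copy, averaged 69.0 ± 8.06 at 9 dpf and 63.0 ± 8.28 at 5 dpf (adjusted p = 0.683), and slc19a2 averaged 124 ± 18.3 at 9 dpf and 115 ± 43.4 at 5 dpf (adjusted p = 0.633; SD, n = 3 each). Reads of slc19a3a per read of slc19a3b averaged 1.77 ± 0.412 at 5 dpf, 2.68 ± 0.563 at 7 dpf and 2.72 ± 0.190 at 9 dpf (SD, n = 3 each). The 9 dpf ratios were all above the 5 dpf ratios.

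Of the other slc46a genes, SLC46A3 of mammals encodes a carrier of the lysosomal membrane. The table names a gene slc46a3 and a further gene SLC46A3 that it marks as 1 of many. The gene marked as 1 of many, ENSDARG00000079933, had 42.6, 46.6 and 61.3 normalized reads at 5 dpf, 65.6, 76.5 and 47.2 at 7 dpf, and 82.2, 87.3 and 68.8 at 9 dpf. Its libraries of 9 dpf were all above those of 5 dpf, with 7 dpf overlapping both. The log2 change of 0.66 (SE 0.22, limma adjusted p = 0.0449) was close to the threshold: it passed in 7 of the 17 alternatives, with adjusted p from 0.0105 to 0.177. Those in which it did not pass include edgeR (0.0661), DESeq2 (0.0983) and leaving out 5 dpf replicate 1 (0.150) or 9 dpf replicate 2 (0.177). slc46a3, the family member with the most reads, had 326, 182 and 298 normalized reads at 5 dpf, 156, 218 and 326 at 7 dpf, and 231, 339.5 and 458 at 9 dpf, with all ages overlapping (adjusted p = 0.459). SLC46A2 stayed between 17.8 and 28.9 normalized reads in all 9 libraries (adjusted p = 0.924).

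Riboflavin carriers are encoded by slc52a3, whose mammalian counterpart takes up riboflavin at the apical face of the intestine, and SLC52A2. Neither passed at 9 against 5 dpf. slc52a3 (ENSDARG00000042737) had 552, 354 and 837 normalized reads at 5 dpf, 469, 369.8 and 505 at 7 dpf, and 607, 779 and 819 at 9 dpf. The libraries of 5 dpf spread the widest and overlapped both later ages, whereas those of 9 dpf were all above those of 7 dpf. Its log2 change was 0.41 (SE 0.25, limma adjusted p = 0.261) for 9 against 5 dpf and 0.71 (SE 0.25, adjusted p = 0.152) for 9 against 7 dpf. Without 5 dpf replicate 3 the adjusted p for 9 against 5 dpf was 0.0496. With quantile scaling the log2 change of slc52a3, 9 over 5 dpf, was 0.03 (limma adjusted p = 0.931). Cyclic loess scaling gave 0.01 (0.967). SLC52A2 had 131 to 176 normalized reads at 9 dpf and 89.5 to 120.1 at 5 dpf, ranges that did not overlap, with a log2 change of 0.44 (adjusted p = 0.117).

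**Figure D2:**
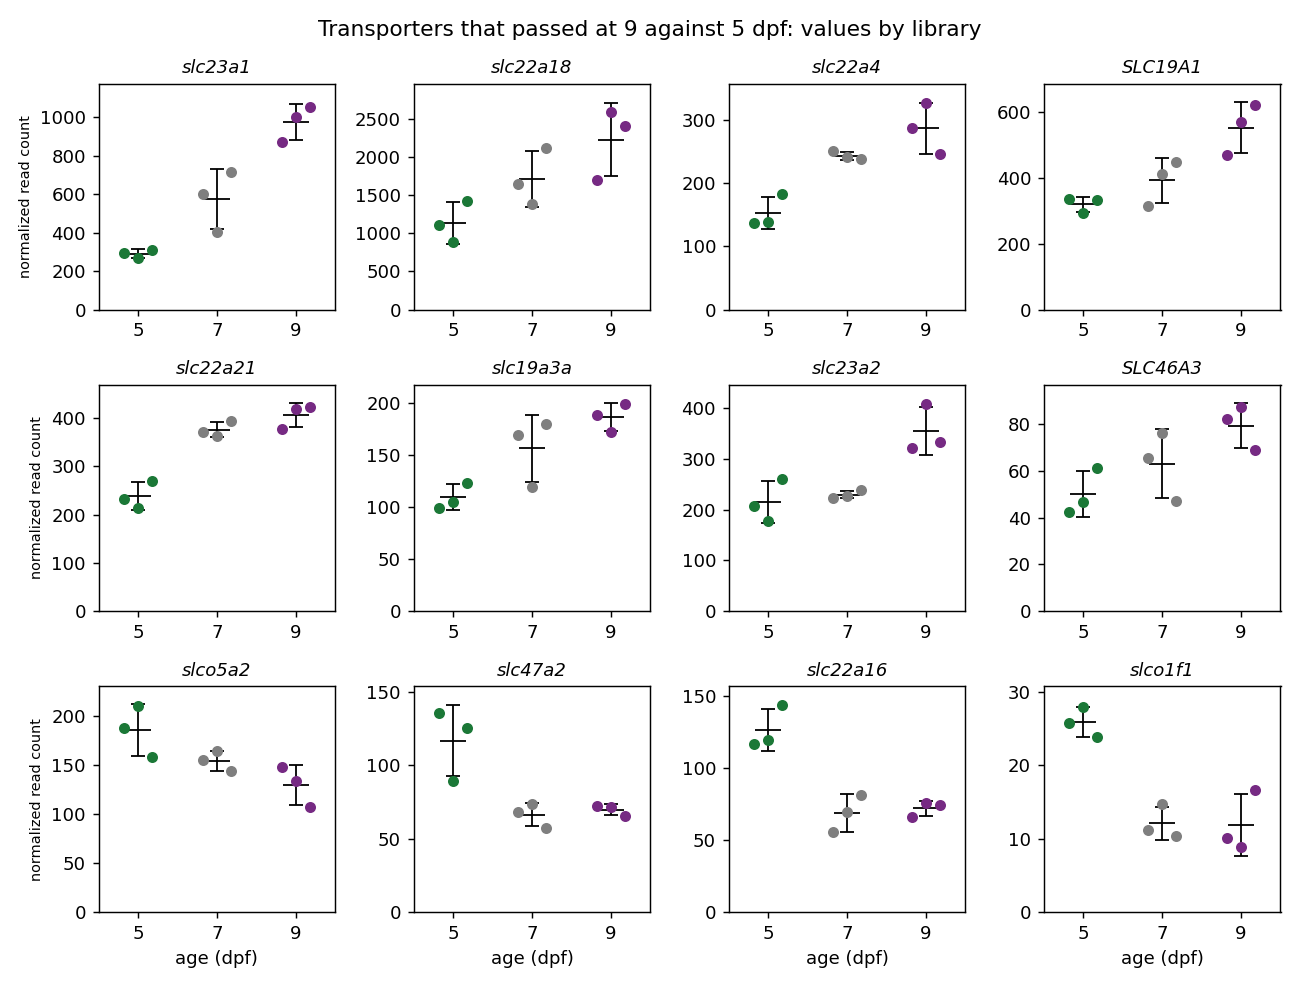
Normalized read count of the 12 transporters that passed at 9 against 5 dpf, in every library, by age in dpf. Each dot is a library of 10 pooled intestines, the horizontal bar is the mean and the whiskers are the SD (n = 3), and SLC46A3 is the gene marked as 1 of many. On this normalized scale the 9 dpf dots of the upper 8 genes are all above the 5 dpf dots, and those of the lower 4 are all below.

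The carnitine branch of the slc22a family held both rising and falling genes. In mammals SLC22A5 carries carnitine, which fatty acids need to enter mitochondria, SLC22A4 carries the antioxidant ergothioneine, and SLC22A16 carries carnitine. slc22a21 bears the name of a mouse relative of these carriers. slc22a4 (ENSDARG00000005335) had 138, 139 and 183 normalized reads at 5 dpf, 251, 242 and 239 at 7 dpf, and 288, 328 and 247 at 9 dpf. All libraries of 7 and 9 dpf were above those of 5 dpf. Its mean of 288 ± 40.3 at 9 dpf, against 153 ± 25.8 at 5 dpf (SD, n = 3 each), was 1.87-fold higher (log2 0.91, SE 0.18, limma adjusted p = 0.00141).

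slc22a21 (ENSDARG00000094112) had 232, 215 and 270.0 normalized reads at 5 dpf, 372, 363 and 394 at 7 dpf, and 379, 419 and 423 at 9 dpf. It too was higher in every library of 7 and 9 dpf than in any of 5 dpf. The mean was 407 ± 24.6 at 9 dpf and 239 ± 28.3 at 5 dpf (SD, n = 3 each), 1.71-fold higher (log2 0.77, SE 0.18, limma adjusted p = 0.00479). Both calls held under all 17 alternatives, none of which scales by total reads alone. With quantile and cyclic loess scaling the log2 changes were 0.69 and 0.68 for slc22a4, and 0.46 and 0.46 for slc22a21. The ratio of slc22a4 to slc22a21 reads was nearly level, with means of 0.640 ± 0.0424 at 5 dpf, 0.649 ± 0.0371 at 7 dpf and 0.709 ± 0.109 at 9 dpf (SD, n = 3 each) and overlapping libraries. The genes are next to each other among the protein-coding genes of RefSeq's GRCz12tu assembly. With paralogs side by side, how reads shared between near-identical stretches were counted is not given in the sources used here.

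slc22a5 (ENSDARG00000101021), the counterpart of the main mammalian carnitine carrier, had 99.3, 90.5 and 91.1 normalized reads at 5 dpf, 82.8, 96.4 and 69.9 at 7 dpf, and 66.0, 58.9 and 80.3 at 9 dpf. Its 9 dpf libraries were all below those of 5 dpf, but the log2 change of -0.46 (SE 0.19) did not pass (limma adjusted p = 0.105). Against it, slc22a4 had 1.65 ± 0.324 times as many reads at 5 dpf, 2.99 ± 0.456 times at 7 dpf and 4.34 ± 1.24 times at 9 dpf (SD, n = 3 each). slc22a16 (ENSDARG00000015869) had 116, 119 and 143 normalized reads at 5 dpf, 55.2, 69.1 and 81.3 at 7 dpf, and 66.0, 75.6 and 74.0 at 9 dpf. Every later library was below every library of 5 dpf. It fell to 71.9 ± 5.14 at 9 dpf, against 126 ± 14.7 at 5 dpf (SD, n = 3 each), 1.74-fold lower (log2 -0.80, SE 0.19, limma adjusted p = 0.00636), and passed under all 17 alternatives. Reads of slc22a16 per read of slc22a5 averaged 1.35 ± 0.203 at 5 dpf and 1.07 ± 0.190 at 9 dpf (SD, n = 3 each), and these ages overlapped.

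Among the other slc22a genes, slc22a18 had the most reads in the family, and its mammalian counterpart is a carrier with no settled substrate. slc22a18 (ENSDARG00000052271) had 1106, 881 and 1424 normalized reads at 5 dpf, 1643, 1388 and 2115 at 7 dpf, and 1696, 2594 and 2404 at 9 dpf. All libraries of 9 dpf were above those of 5 dpf, and 7 dpf overlapped both. The mean was 2231 ± 474 at 9 dpf and 1137 ± 273 at 5 dpf (SD, n = 3 each), 1.97-fold higher (log2 0.98, SE 0.26, limma adjusted p = 0.0120). The adjusted p was 0.0739 without 9 dpf replicate 2 and 0.0662 without 9 dpf replicate 3. With quantile scaling the log2 change of slc22a18 was 0.49 and with cyclic loess scaling 0.48, and both passed.

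slc22a6l, named after the renal organic anion exchanger OAT1 of mammals and matched by identifier to the symbol SLC22A8, just missed the threshold. It had 909.5, 694 and 1172 normalized reads at 5 dpf, 1497, 1223 and 1726 at 7 dpf, and 1239.7, 1757 and 1436 at 9 dpf, so that every later library was above every library of 5 dpf. The log2 change, 9 over 5 dpf, was 0.69 (SE 0.24, limma adjusted p = 0.0545), and it passed in 7 of the 17 alternatives, among them edgeR (0.0446) and DESeq2 (0.0207). Those in which slc22a6l did not pass include quantile scaling (log2 0.23, adjusted p = 0.117) and cyclic loess scaling (log2 0.21, adjusted p = 0.134). Without 9 dpf replicate 2 its adjusted p was 0.230. The organic cation carrier gene SLC22A3 had 159, 225 and 239.9 normalized reads at 9 dpf, against 139, 115 and 158 at 5 dpf, and its log2 change of 0.58 did not pass in limma (adjusted p = 0.0758). It passed without 7 dpf replicate 2 (0.0294), 7 dpf replicate 3 (0.0493) or 9 dpf replicate 1 (0.0287). SLC22A3 did not pass with edgeR (0.0756), DESeq2 (0.123), quantile scaling (0.225) or cyclic loess scaling (0.209). slc22a17, a counterpart of the mammalian lipocalin receptor, had 41.2 to 51.8 normalized reads at 9 dpf and 58.1 to 81.8 at 5 dpf (log2 -0.58, limma adjusted p = 0.0603). It passed with edgeR (0.0406), with TMM scaling (0.0436) and without 9 dpf replicate 1 (0.0483). DESeq2 (0.0950), quantile scaling (0.105) and cyclic loess scaling (0.127) did not call slc22a17. Of the 18 slc22a genes, 3 rose, 1 fell and 14 did not pass, close to the shares of all genes tested (12.6% higher and 4.28% lower), and the family's median log2 change was 0.08 with a range from -0.80 to 0.98. The 5 genes named slc22a7a, slc22a7b.1, slc22a7b.2, slc22a7b.3 and SLC22A7 are close copies of an organic anion carrier, none passed, and their changes ran from -0.79 to 0.11. Without 9 dpf replicate 1, slc22a7b.2 passed as lower (log2 -1.20, limma adjusted p = 0.0246).

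The multidrug and toxin exporters of the slc47a family push organic cations out of epithelial cells into bile, urine and gut. slc47a1 (ENSDARG00000046012) had 1529, 1205 and 1479 normalized reads at 5 dpf, 1316, 1083 and 1352 at 7 dpf, and 1023, 1354 and 1172 at 9 dpf. The ages overlapped, and the log2 change of -0.25 (SE 0.22) did not pass (limma adjusted p = 0.459). Quantile scaling gave it -0.75 (adjusted p = 8.8e-05) and cyclic loess scaling -0.73 (adjusted p = 6.2e-05), so whether it is called depends on the scaling.

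slc47a2 (ENSDARG00000060051) lies next to slc47a1 in the same RefSeq assembly. It had 135, 89.5 and 125 normalized reads at 5 dpf, 68.2, 73.3 and 57.6 at 7 dpf, and 72.1, 71.6 and 65.7 at 9 dpf. All later libraries were below those of 5 dpf. It fell to 69.8 ± 3.56 at 9 dpf, against 117 ± 24.1 at 5 dpf (SD, n = 3 each), 1.64-fold lower (log2 -0.71, SE 0.20, limma adjusted p = 0.0162). The call was lost without 5 dpf replicate 1 (0.0906), 5 dpf replicate 3 (0.0530), 9 dpf replicate 2 (0.0511) or 9 dpf replicate 3 (0.0698). The ratio of slc47a2 to slc47a1 reads was 0.0598 ± 0.00935 at 9 dpf and 0.0825 ± 0.00739 at 5 dpf (SD, n = 3 each), lower in all 3 libraries. A further 4 genes carry the name SLC47A1 and are marked as 1 of many. Their changes ran from -0.53 to 0.13 and none passed.

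The slco family had no rise that passed. Of its 14 genes 2 fell and 12 did not pass, where 4.28% of all genes tested fell and 12.6% rose. The median log2 change was -0.39, against -0.04 for all genes tested, and 5 of the 14 had a mean under 50 normalized reads, a class described below whose own median was -0.25. slco1f1 (ENSDARG00000102283) had 25.8, 28.0 and 23.8 normalized reads at 5 dpf, 11.2, 14.7 and 10.4 at 7 dpf, and 10.2, 8.83 and 16.7 at 9 dpf. The later libraries were all below those of 5 dpf. Its mean was 11.9 ± 4.21 at 9 dpf and 25.9 ± 2.07 at 5 dpf (SD, n = 3 each), 2.15-fold lower (log2 -1.11, SE 0.34, limma adjusted p = 0.0311). It lost the call without any 1 of the libraries of 5 dpf (adjusted p 0.0820, 0.0931 and 0.0510 without replicates 1, 2 and 3), without 9 dpf replicate 1 (0.0669) and without 9 dpf replicate 2 (0.146).

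slco5a2 (ENSDARG00000086104), of a family branch whose substrates in mammals are not settled, had 188, 211 and 158 normalized reads at 5 dpf, 155, 164 and 144 at 7 dpf, and 148, 133 and 107 at 9 dpf. The libraries of 9 dpf were all below those of 5 dpf, and 7 dpf overlapped both. The mean of 129.7 ± 20.7 at 9 dpf, against 186 ± 26.3 at 5 dpf (SD, n = 3 each), was 1.43-fold lower (log2 -0.52, SE 0.18). Its adjusted p of 0.0492 was close to the threshold, and it passed in 9 of the 17 alternatives, with adjusted p from 0.0164 to 0.232. Without 9 dpf replicate 3 it was 0.232, and without 5 dpf replicate 2 it was 0.161.

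The slco genes with the most reads did not pass. slco2b1 (ENSDARG00000054609), whose mammalian counterpart takes up organic anions and drugs in the intestine, had 1106, 959.8 and 1098 normalized reads at 5 dpf, 1335, 1238 and 1569 at 7 dpf, and 786, 1144 and 1120.1 at 9 dpf. The libraries of 7 dpf were above all others, and those of 9 and 5 dpf overlapped (log2 -0.07, limma adjusted p = 0.856). slco1d1, a carrier of steroid conjugates in zebrafish, averaged 826 ± 169 at 9 dpf and 752 ± 122 at 5 dpf (log2 0.13, adjusted p = 0.714), and slco2a1, the prostaglandin transporter in mammals, averaged 536 ± 138 at 9 dpf and 791 ± 303 at 5 dpf (log2 -0.51, adjusted p = 0.240; SD, n = 3 each). Under quantile and cyclic loess scaling all of these passed as lower at 9 dpf: slco2b1 had a log2 change of -0.54 and -0.55, slco2a1 -0.90 and -0.92, and slco1d1 -0.30 and -0.32, which for slco1d1 turns the sign. slco2a1 also passed as lower without 5 dpf replicate 2 (log2 -0.88, limma adjusted p = 0.0187). slco1d1, slco1e1, slco1f3 and slco1f2 form a run of neighbours in the RefSeq assembly, and none of these 4 passed.

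Read level moved with the sign of the change. Of the 13 transporters whose mean over the 9 libraries was under 50 normalized reads, 12 had a negative change at 9 against 5 dpf and 1, slco1f1, was called lower. Over all genes tested with a mean under 50, which were 9064 genes, 74% had a negative change, 2.73% were called lower, and the median log2 change was -0.25. The remaining genes were negative in 40.2%. The part of read level in the signs of the slco and slc22a7 genes was not tested.

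Some of the genes called at 9 dpf had already passed at 7 dpf. At 7 against 5 dpf, 5 transporters were called: slc23a1, slc22a4 and slc22a21 were higher, and slc22a16 and slc47a2 lower. That is 9.8% of the 51, against 4.05% of all genes tested (2.63% higher and 1.43% lower). The 7 dpf libraries lay entirely above those of 5 dpf for 7 transporters and entirely below for 3, against 11.9% and 7.49% of all genes, or 19.4% either way. All 5 were also called in the same direction at 9 against 5 dpf, a comparison that shares the 5 dpf libraries. Log2 changes, 7 over 5 dpf, were 0.94 for slc23a1 (limma adjusted p = 0.0135), 0.68 for slc22a4 (0.0321), 0.66 for slc22a21 (0.0359), -0.88 for slc22a16 (0.00966) and -0.79 for slc47a2 (0.0224). The median log2 change was -0.12 over the transporters, against -0.0022 over all genes tested. None of the 5 calls held under all 17 alternatives. slc22a16 lost its call only without 7 dpf replicate 1 (limma adjusted p = 0.0980). slc23a1 lost it without 5 dpf replicate 1 (0.0572), 7 dpf replicate 1 (0.0948) or 7 dpf replicate 3 (0.0829). No transporter was called without 7 dpf replicate 1, where 1.3% of all genes tested were. There was 1 without 5 dpf replicate 1 (1.97% of all genes) and 1 without 7 dpf replicate 3 (2.49%). Without 5 dpf replicate 2 there were 3 (3.55%).

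At 9 against 7 dpf no transporter passed in limma, where 1.88% of all genes tested did (1.5% higher and 0.383% lower). At an unadjusted p under 0.05 there were 8 of the 51, against 3788 of the 24298 genes tested. edgeR called 2 and DESeq2 called 1, against 3.25% and 3.02% of all genes. The nearest to the threshold were both ascorbate carriers, slc23a1 with a log2 change of 0.80 (SE 0.22, adjusted p = 0.0570) and slc23a2 with 0.62 (SE 0.19, adjusted p = 0.0852). Their libraries of 9 dpf were all above those of 7 dpf. That held for 5 transporters, and the reverse for 4, against 11.5% and 8.89% of all genes, or 20.3% either way. slc23a1 passed here in 8 of the 17 alternatives and slc23a2 in 5. The difference between the steps, 9 over 7 dpf minus 7 over 5 dpf, passed for no transporter in limma, edgeR or DESeq2. In limma 1% of all genes passed (0.642% with a positive and 0.362% with a negative difference). For this difference 6 transporters were at an unadjusted p under 0.05, against 2124 of the 24298 genes tested. All 8 genes that rose had a positive change in both steps. Of the 4 that fell, slco1f1 and slco5a2 were negative in both steps, while slc22a16 and slc47a2 were 0.08 above their 7 dpf level at 9 dpf on the log2 scale. For slc22a16 the steps differed by 0.96 (SE 0.33, adjusted p = 0.254).

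**Figure D3:**
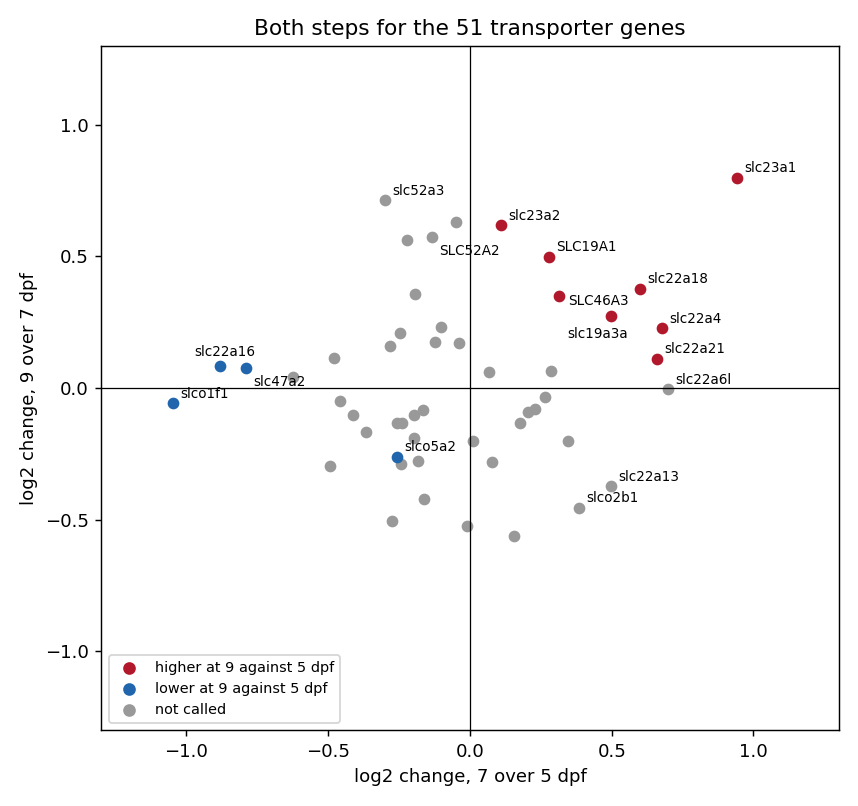
Log2 change of each of the 51 transporters from 5 to 7 dpf (horizontal) and from 7 to 9 dpf (vertical), as limma estimates. Red and blue mark the genes called higher and lower at 9 against 5 dpf, and SLC46A3 is the gene marked as 1 of many. slc23a1 is farthest to the upper right, at 0.94 and 0.80, and the 8 red points are all above 0 on both axes.

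**Figure D4:**
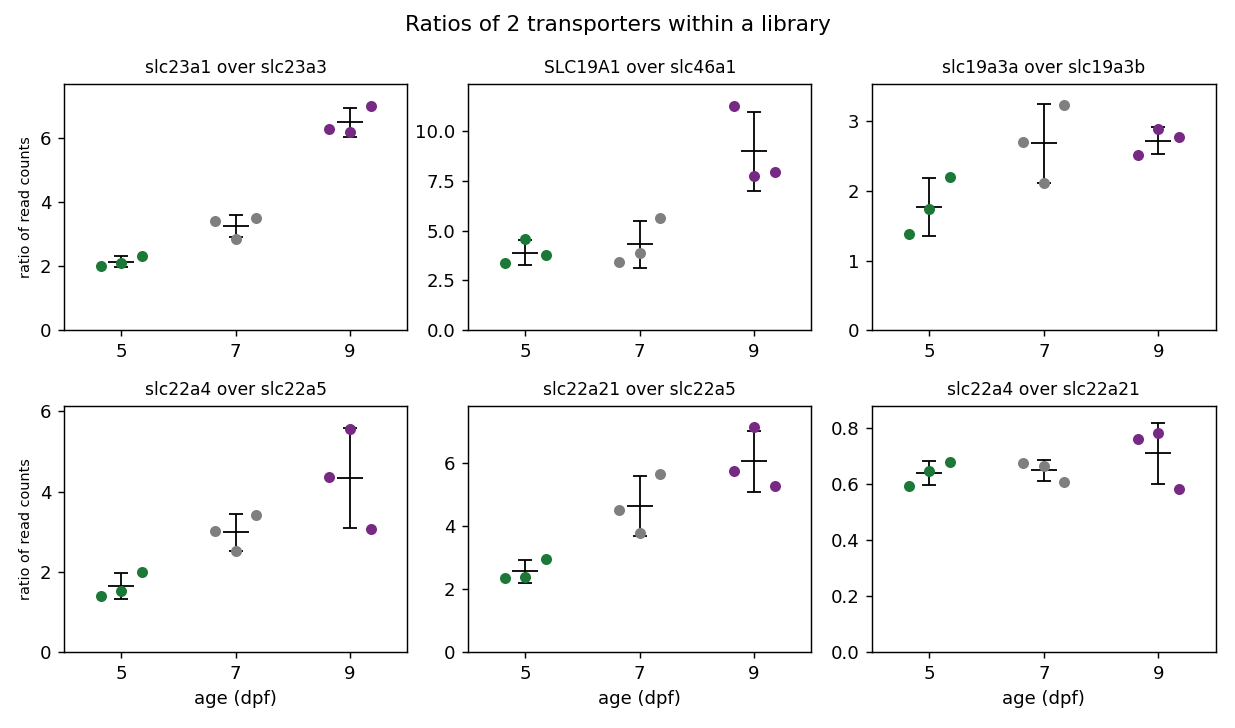
Reads of 1 transporter per read of another in the same library, by age in dpf, for 6 pairs. Each dot is a library, the bar is the mean and the whiskers are the SD (n = 3); the level of a ratio depends on transcript length. The ratio of slc23a1 to slc23a3 averaged 2.14, 3.25 and 6.48 at 5, 7 and 9 dpf, and that of slc22a4 to slc22a21 overlapped between ages.

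Enzymes and partners of these vitamins were taken from lists made by function. Of 21 genes of folate enzymes tested, 5 rose and 1 fell at 9 against 5 dpf, with a median log2 change of 0.29. Those that rose include shmt1, the cytosolic enzyme that passes carbon from serine to folate (log2 1.04, SE 0.22, limma adjusted p = 0.00266), methionine synthase mtr (log2 0.94, adjusted p = 0.00457), its reductase mtrr (0.79, 0.00303) and the purine synthesis enzyme atic (0.69, 0.0150). ftcd, an enzyme of histidine breakdown that hands carbon to folate, fell (-0.87, 0.0269). All 4 genes of thiamine and riboflavin use were tested and 3 rose, with a median of 0.68 (edgeR called 2 and DESeq2 1): FAD synthase flad1 (log2 1.12, adjusted p = 0.00147), thiamine triphosphatase thtpa (0.72, 0.0306) and riboflavin kinase rfk (0.64, 0.0428). Of 11 cobalamin genes none passed in limma (3 at an unadjusted p under 0.05, 2 called by edgeR and 2 by DESeq2). Over all genes tested, 7820 of 24298 were at an unadjusted p under 0.05, and edgeR called 19% and DESeq2 15.9%.

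Carnitine genes rose in 6 of 13 tested and fell in none, with a median log2 change of 0.53. The outer mitochondrial acyltransferase cpt1ab averaged 3887 ± 469 normalized reads at 9 dpf and 1292 ± 338 at 5 dpf (SD, n = 3 each; log2 1.62, SE 0.26, limma adjusted p = 0.000181). The carnitine and acylcarnitine exchanger slc25a20 rose 2.00-fold (adjusted p = 0.00877), the peroxisomal transferase crot 1.81-fold (0.00889) and the acetyltransferase crata 1.69-fold (0.0149). At 7 against 5 dpf 1 of the 13 was called, higher, where 2.63% of all genes tested were. At 9 against 5 dpf, 12.6% of all genes tested were called higher and 4.28% lower. These shares are the background for the counts of the lists above and below.

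Genes of the ABC families that hold exporters of drugs, bile salts and conjugates rose in 3 of 19 and fell in 1, with a median of 0.25. These counts are near the shares of all genes tested (12.6% higher and 4.28% lower). The 19 include abcc8 and abcc9, which encode potassium channel subunits and not exporters. abcg2a averaged 18105 ± 3452 normalized reads at 9 dpf and 7645 ± 2380 at 5 dpf (SD, n = 3 each; log2 1.28, adjusted p = 0.00983). abcb11a, of the bile salt export pump genes, rose by 0.97 (0.00599) and the conjugate exporter abcc2 by 0.91 (0.0486), and abcc9 was the gene that fell (log2 -0.66, adjusted p = 0.0199). Of 21 carriers of other vitamins, cofactors and bile salts, slc25a20, also counted with the carnitine genes, and the mitochondrial S-adenosylmethionine carrier slc25a26 (0.57, 0.0465) rose, and the glucose and dehydroascorbate carrier slc2a1b fell (-0.87, 0.00737), with a median of 0.29.

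Markers of cell types moved with age beside these genes. Their counts, here and below, stand against 12.6% of all genes tested called higher and 4.28% called lower at 9 against 5 dpf. Of 8 enterocyte markers 5 rose at 9 against 5 dpf and none fell, with a median log2 change of 1.17. Their summed level ran from 136590 to 202830 normalized reads at 9 dpf and from 57501 to 98577 at 5 dpf, and in RPM too the ages did not overlap. The log2 changes of the 8 markers ran from 0.32 for cldn15la to 2.11 for chia.1. The 8 transporters that rose were picked by their rise, so the shared direction follows from that choice. Their changes, 0.66 to 1.74, lie inside that range, whose lower end, cldn15la, did not pass (limma adjusted p = 0.503). Smooth muscle and mesenchyme markers fell in 4 of 9, with sums of 9130 to 12583 normalized reads at 9 dpf and 9738 to 16778 at 5 dpf, which overlap. On the RPM scale the same sums did not overlap, at 795 to 954 RPM at 9 dpf and 1488 to 1686 RPM at 5 dpf. Skeletal muscle markers fell in 5 of 9, with sums of 819 to 951 normalized reads at 9 dpf and 1209.8 to 1822 at 5 dpf. Enteric neuron and glia markers fell in 3 of 10 (edgeR called 2 and DESeq2 1), with sums of 754 to 857 normalized reads at 9 dpf and 989 to 1078.5 at 5 dpf. Neither pair of sums overlapped, in RPM either. At 9 against 5 dpf, the falls of these 3 lists have the direction of the 4 transporters that fell, which were picked by their fall. The kidney (-0.32), liver (-0.94), endothelial (-0.22) and blood cell (-0.50) lists described below also had negative median log2 changes. Those of exocrine pancreas (0.43) and leukocytes (0.17) were positive. At 7 against 5 dpf, slc22a16 and slc47a2 were already called lower, and the smooth muscle, skeletal muscle and enteric neuron lists differed from each other. Smooth muscle and mesenchyme markers were called lower in 4 of 9, with a median log2 change of -0.32. Of the skeletal muscle markers 1 was called higher and 0 lower, with a median of 0.34. No enteric neuron and glia marker was called, with a median of 0.03. Over all genes tested, 2.63% were called higher and 1.43% lower in this step. The part of these cell types in the rises and falls of the transporters was not tested.

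Markers of organs that use many of the same carriers were also counted. Every kidney, liver, pancreas and endothelial marker found had at least 1 read in every library. A library had reads from 28869 to 29464 of all 30263 genes, so a read alone does not show cells of these organs. Of 14 kidney markers, slc4a4a, which the gut also expresses, rose and slc13a3 fell, with sums of 6037 to 7574 normalized reads at 9 dpf and 3573 to 5352 at 5 dpf, which do not overlap. In RPM they overlapped, at 539 to 596 RPM at 9 dpf and 512 to 546 RPM at 5 dpf. A large part of the kidney sums was slc4a4a. It averaged 5065 ± 767 normalized reads at 9 dpf and 2706 ± 723 at 5 dpf (SD, n = 3 each). The median log2 change of the kidney list was -0.32. Liver markers fell in 2 of 15, with sums of 2609 to 3973 normalized reads at 9 dpf and 1398 to 5659.9 at 5 dpf, which overlap. The median log2 change of the liver list was -0.94, with 8 at an unadjusted p under 0.05, 3 called by edgeR and 5 by DESeq2. A large part of the 9 dpf sums was apoa2, at 2668 ± 706 normalized reads against 1066 ± 915 at 5 dpf (SD, n = 3 each). Its rise did not pass (limma adjusted p = 0.0634), and all other liver markers had a negative change. None of 10 exocrine pancreas markers passed in limma (1 at an unadjusted p under 0.05, 0 by edgeR and 0 by DESeq2), with sums of 5528 to 9478 normalized reads at 9 dpf and 2557 to 9325 at 5 dpf, which overlap. None of 9 endothelial markers passed (2 at an unadjusted p under 0.05, 1 by edgeR and 0 by DESeq2), with sums of 1165 to 1238 normalized reads at 9 dpf and 1162 to 1471 at 5 dpf, which overlap, while in RPM they did not, at 84.0 to 122 RPM at 9 dpf and 143 to 178 RPM at 5 dpf. Leukocyte markers rose in 2 of 8, with sums of 490.2 to 596 normalized reads at 9 dpf and 341 to 423 at 5 dpf, which do not overlap, while in RPM they did (36.4 to 58.9 RPM at 9 dpf and 34.1 to 64.6 RPM at 5 dpf). Of 5 tested markers of blood cells and thrombocytes 1 fell, and the sums of the list were 200.25 to 271 normalized reads at 9 dpf and 313 to 402 at 5 dpf, with no overlap on either scale. Over all genes tested, 7820 of 24298 were at an unadjusted p under 0.05, and edgeR called 19% and DESeq2 15.9%. These are the background for the counts of the same kind in these lists. The part of these cells was not tested either.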

How the data were processed

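The 51 genes and all gene lists were chosen with earlier results of these data known. The submitters' processing notes list STAR 2.5.2b, DESeq2 1.16.1 and the GRCz10 build, with no roles. The deposited RNA values are a signal: read counts that the authors divided by 1 size factor per library. Multiplying by that factor gave whole reads for 100% of values within 1e-06, and these recovered counts went into edgeR 4.0.16 and DESeq2 1.42.0 as alternatives. The main test was limma 3.58.1 in R 4.3.3 (trend, robust) on log2(value + 1), which understates the change of low genes. The filter kept genes that reached 10 normalized reads in 3 libraries, with Benjamini-Hochberg adjustment over 24298 genes per contrast and a threshold of 0.05. The fit was checked on simulated data. Named with values were all transporters that passed and the one with the highest mean per family. Other transporters were named after their values were seen. From each pathway list, up to 4 genes per direction with the largest change were named. By identifier, 48 of the 51 matched the gene name table, and 40 were found in RefSeq's GRCz12tu table. 7 names are marked as 1 of many, and how reads of near-identical copies were assigned is not given in the sources used here. Histone mark peaks were not used, as gene coordinates of GRCz10 were not at hand. The list of transporter regulators and scaffolds is not reported here.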

Additional observations from a re-analysis of the deposited data

How the results depend on the processing

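Of the 12 calls at 9 against 5 dpf, 5 (slc23a1, slc22a4, slc22a21, slc19a3a and slc22a16) held under all 17 alternatives. None of the 17 scales by total reads alone. The count was 14 with TMM scaling, 16 with quantile or cyclic loess scaling, 12 with a pseudocount of 5, 10 without the filter on low values, 14 with edgeR and 11 with DESeq2, and 6 to 14 with 1 library left out. The share of all genes called moved too, from 16.8% in the main fit. It was 18.9% with TMM, 21.1% with quantile and 21.5% with cyclic loess scaling. It was 17% with a pseudocount of 5, 11.9% without the filter, 19% with edgeR and 15.9% with DESeq2. With 1 library left out it was 7.49% to 19.4%. With quantile and cyclic loess scaling the log2 changes of the genes that rose were smaller than in the main fit. The exception was the SLC46A3 gene marked as 1 of many, with 0.78 and 0.80, against 0.66. Among single genes 1 change turned its sign and passed: slco1d1, with log2 changes of -0.3011 under quantile and -0.3161 under cyclic loess scaling. At 7 against 5 dpf the count of 5 became 8 with quantile and 9 with cyclic loess scaling, and 0 to 6 with 1 library left out. The shares of all genes were 4.05% in the main fit, then 9.36%, 8.6% and 1.3% to 6.29%. At 9 against 7 dpf the count of 0 became 2 with TMM scaling, 3 with quantile scaling, 5 with cyclic loess scaling, 2 with edgeR, 1 with DESeq2, and 0 to 3 with 1 library left out. All genes were called in 1.88% in the main fit, then in 3.19%, 6.39%, 8.41%, 3.25%, 3.02% and 0.416% to 4.12%. For the difference of the steps the count became 1 with quantile and 1 with cyclic loess scaling (slc52a3 in both), and stayed 0 with each library left out. Here the shares of all genes were 1% in the main fit, then 3.3%, 3.5% and 0.222% to 1.8%. The cause of these shifts was not tested.

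With the replicate number as a block, 12 transporters were called at 9 against 5 dpf (9 higher, 3 lower) and 5 at 7 against 5 dpf. There was 1 at 9 against 7 dpf and 0 for the difference of the steps. The shares of all genes, in that order, were 17.1%, 5.1%, 3.25% and 1.69%. At 9 against 5 dpf slco5a2 lost its call (limma adjusted p = 0.0533) and SLC22A3 gained one (0.0461). Correlations of same-numbered libraries, after subtraction of the age means, ran from -0.42 to 0.47, and own numbers correlated best in 1 library of 9, so the numbers were not read as pairs. The planned counts of genes with H3K4me3 or H3K27me3 at their start, and their alternatives, were not run. The 13 transporters with a mean under 50 normalized reads, 5 of them slco genes, rest on few reads.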
